A study of Rattus norvegicus with 30 samples.

Results

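Stk40 encodes STK40, a serine/threonine pseudokinase related to the tribbles proteins that is known as a repressor of NF-kB-driven transcription and as a published direct target of the microRNA miR-31. Its mRNA was followed here in the oesophageal epithelium of 30 rats in 6 groups. All probe sets annotated to Stk40 on the rat expression array were taken, and there was 1, probe set 1371943_at, so that Stk40 is 1 of the 14217 genes measured. The gene lies on rat chromosome 5, and its level is given throughout as a deposited log2 expression value, in which a difference of 1 unit is a doubling.

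STK40 carries a kinase-like fold without the usual catalytic activity and, like the tribbles proteins, binds the ubiquitin ligase COP1, which marks transcription factors for degradation. NF-kB transcription factors are held in the cytoplasm by inhibitors of the IkB family until IkB kinases mark those inhibitors for destruction, after which the factors switch on inflammatory genes. A microRNA pairs through its seed with sites in target mRNAs and lowers their stability or translation. In squamous epithelia miR-31 is known as an oncogenic microRNA, and the route from miR-31 through STK40 to NF-kB has been described in keratinocytes and in oesophageal cancer.

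All 30 rats were male Sprague-Dawley animals. Their diet was zinc-deficient (ZD), fed freely, or zinc-sufficient (ZS), pair-fed, and began at 4 weeks of age. Every group, the controls included, received the oesophageal carcinogen N-nitrosomethylbenzylamine (NMBA) by stomach tube, in 4 doses of 2 mg/kg from week 5 of the study. Tissue was taken 15 weeks after the first of these doses or, in the antimiR rats, 48 h after the last antimiR dose, and ages at sampling are not stated directly. Among 20 unedited rats there were 5 untreated ZS rats, 5 untreated ZD rats, 5 ZD rats given a locked nucleic acid antimiR against miR-31 for 5 weeks and 5 ZD rats given it for 20 weeks. The antimiR was injected into the tail vein, first at 20 mg/kg and then repeatedly at 6 mg/kg. Its controls were untreated, with no control oligonucleotide, and the labels do not settle at what age the 5-week rats were killed. The other 10 rats carried a CRISPR/Cas9 deletion of miR-31 (miR-31-/-), 4 on the ZS and 6 on the ZD diet, and belonged to an experiment of their own, on the same carcinogen schedule. Wild-type littermates of the knockout rats are not analysed here, and miR-31 itself was not measured on this array. Rats are called by the numbers in their labels.

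Apart from diet, the groups differ in the loss or blockade of miR-31. Its sequence is printed with its precursor because the antimiR is directed at the first and the knockout removes it. Both come from RefSeq, assembly GRCr8, where the mature strand lies on the minus strand at chr5:108714906-108714927 and the hairpin at chr5:108714849-108714954, on the same chromosome as Stk40. In the mature sequence the capitals mark the seed, bases 2 to 8, and in the hairpin they mark the mature strand.
rno-miR-31a-5p: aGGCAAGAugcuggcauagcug
Mir31 hairpin: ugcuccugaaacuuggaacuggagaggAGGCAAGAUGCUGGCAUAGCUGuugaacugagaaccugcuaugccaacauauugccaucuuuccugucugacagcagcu
A target site pairs with the seed through its complement, UCUUGCC. Of the 693 mature rat miRNAs in the RefSeq table, 1 carried this seed, miR-31 itself. The Stk40 transcript was not searched for the site here.

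The 20 unedited and the 10 knockout arrays were taken as normalized apart, which is inferred from their array medians and stated in none of the sources used here. These medians lay between 5.37 and 5.45 in the unedited set and between 5.81 and 5.93 in the knockout set, so groups were compared within a set. Within groups, the lowest correlation between arrays was 0.977. Keratinocyte markers were present. All 9 basal markers lay above the array median in every group, with Krt15, the basal keratin, at group means between 13.3 and 13.6. Of 11 suprabasal markers, 1 lay below that median in ZS knockout rats and none in the other groups. All 10 fibroblast and matrix markers were also above it in every group, so this bar does not tell cell types apart. Smooth and skeletal muscle markers were also present, and the skeletal muscle mean ran from 5.23 to 10.6 over arrays. One knockout array stood apart in immune cell markers: ZS knockout rat 32 had a mean of 9.09 over 10 macrophage markers and of 7.28 over 8 T and B cell markers, against at most 7.87 and 5.73 in the other knockout rats. In bulk tissue, fewer cells of a type and less RNA per cell cannot be told apart. Each array came from 1 rat, so p-values measure the spread between rats, which limma pooled over all 6 groups.

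Stk40 was lower in the ZD than in the ZS oesophagus of unedited, untreated rats. In ZS rats 16 to 20 the level was 7.40, 7.33, 7.55, 7.57 and 7.39, with a mean of 7.45 ± 0.11 (SD, n = 5). In ZD rats 11 to 15 it was 7.08, 6.95, 7.13, 7.03 and 7.05, with a mean of 7.05 ± 0.069 (SD, n = 5). The groups did not overlap: each of the 5 ZD rats was below each of the 5 ZS rats, so that the ZD rat was higher in 0 of 25 pairs. Over all genes, 11.4% had groups that did not overlap in this comparison.

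The difference was -0.40 log2 units (SE 0.080, 95% interval -0.57 to -0.24), so that Stk40 fell by 24.3%, and it passed with an adjusted p of 0.00175 in limma, where 13.9% of the 14217 genes passed. The exact two-sided permutation test over the 10 rats gave p = 0.00794, the smallest that 5 rats against 5 allow, and 0.0185 after adjustment over the 7 exact tests made on Stk40. In size the change was modest, since 13.9% of genes differed by more. In consistency it ranked higher, with 1.72% of genes at a smaller p. Stk40 varied little between rats of a group, with a residual SD of 0.123 against a median of 0.163 over all genes.

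**Figure D1:**
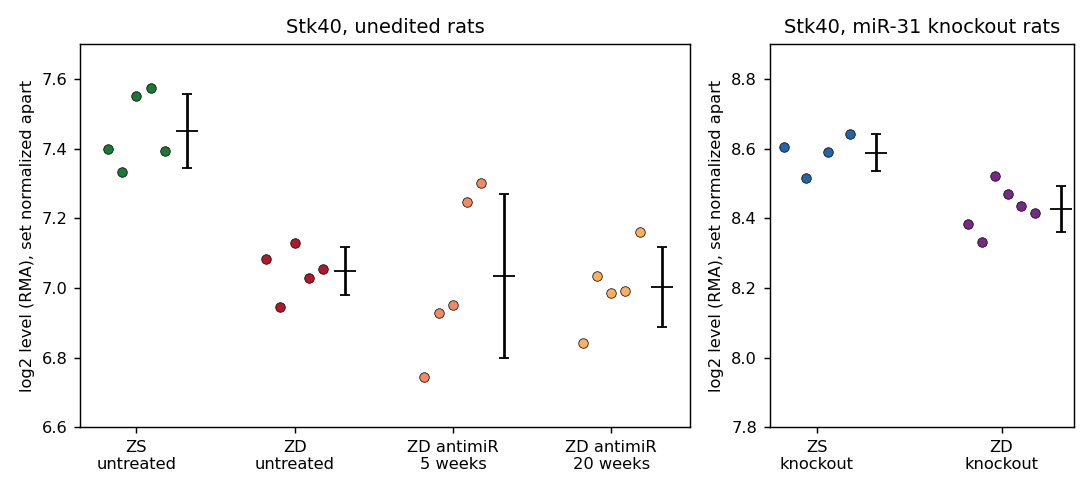
Stk40 log2 level on each array by group, with points for single rats and, beside them, a dash with error bars for the group mean and SD. The left panel shows unedited and the right knockout rats, on separate vertical axes. The ZS unedited rats lie between 7.33 and 7.57, above all 5 untreated ZD rats, and the knockout arrays, normalized apart, lie between 8.33 and 8.64.

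Smooth muscle markers moved in the same comparison. Of 14 markers of smooth muscle, such as Acta2, Myh11 and Des, 12 were lower in ZD rats and none was higher, with a median difference of -1.68 against 0.00357 over all genes. Of all genes, 6.95% were called lower. The mean over the 14 markers ran from 8.82 to 10.2 in ZS rats and from 7.26 to 8.19 in untreated ZD rats, without overlap. Of single genes, 11.4% had groups that did not overlap. With that mean as a covariate, the Stk40 difference was -0.34 (SE 0.11, 95% interval -0.56 to -0.12), which is 85.0% of the value without it, and the adjusted p in limma was 0.113, so the call was lost. In that fit 156 genes, or 1.10%, passed in place of 1974. The slope of Stk40 on the marker mean was 0.036 (SE 0.042) per log2 unit.

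**Figure D2:**
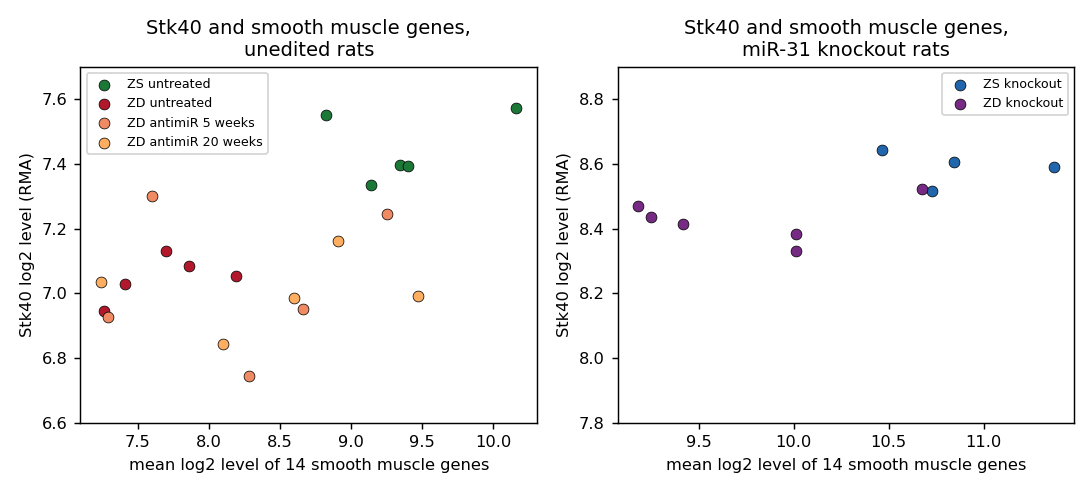
Stk40 log2 level of each rat (vertical axis) against the mean log2 level of 14 smooth muscle markers on the same array (horizontal axis), in unedited rats (left) and knockout rats (right), coloured by group. Untreated ZD rats lie between 7.26 and 8.19 on the horizontal axis. The antimiR rats run from 7.24 to 9.47 there, and all have Stk40 below every ZS rat.

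The antimiR groups asked whether blocking miR-31 in ZD rats moved Stk40 away from the untreated ZD level, and no difference passed. After 5 weeks of antimiR, rats 6 to 10 had Stk40 levels of 6.74, 6.93, 6.95, 7.25 and 7.30, with a mean of 7.03 ± 0.23 (SD, n = 5). This was the widest spread of any group, with rats 9 and 10 above all 5 untreated ZD rats and rats 6 and 7 below them. After 20 weeks, rats 1 to 5 had 6.84, 7.03, 6.99, 6.99 and 7.16, with a median of 6.99 and an SD of 0.11 (n = 5). Both groups overlapped the untreated ZD rats.

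Against untreated ZD rats, Stk40 differed by -0.014 after 5 weeks (95% interval -0.18 to 0.15, adjusted p in limma 0.982). The exact two-sided permutation test gave p = 0.929, and the treated rat was higher in 11 of 25 pairs. In this comparison 0% of genes passed in limma, although 1021 had an unadjusted p under 0.05. After 20 weeks the difference was -0.045 (95% interval -0.21 to 0.12, adjusted p in limma 0.841), with an exact two-sided permutation p of 0.492 and the treated rat higher in 9 of 25 pairs. Here 0.647% of genes passed. Between 20 and 5 weeks the difference was -0.031 (95% interval -0.20 to 0.13), with an exact two-sided permutation p of 0.794, where 0.0211% of genes passed. Both intervals against untreated ZD rats end below the 0.40 by which Stk40 differed between the diets. These comparisons share the 5 untreated ZD arrays.

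Set against untreated ZS rats, Stk40 was lower in both antimiR groups. The 5-week group was lower by -0.41 (95% interval -0.58 to -0.25, adjusted p in limma 0.00201), in a comparison where 9.08% of genes passed. The 20-week group was lower by -0.45 (95% interval -0.61 to -0.28, adjusted p in limma 0.00339), where 3.63% of genes passed, and 0.190% of genes had a smaller p. Neither group overlapped the ZS rats, as for 8.23% and 6% of all genes, and the exact two-sided permutation p was 0.00794 in each. Both of these comparisons, and that of the untreated diets, use the same 5 ZS arrays. With the smooth muscle covariate the values were -0.37 (adjusted p 0.0366 in limma) and -0.41 (adjusted p 0.0252 in limma), both still past the threshold. The marker mean ran from 7.29 to 9.25 in the 5-week and from 7.24 to 9.47 in the 20-week rats. It reached the ZS range, which began at 8.82, in rats 4, 5 and 9 and lay below it in the others. Every one of these 10 rats had less Stk40 than every ZS rat. Beyond the covariate fit, the part of smooth muscle in these values was not tested.

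In the miR-31 knockout rats the ZD level of Stk40 was below the ZS level by a smaller amount that did not pass over all genes. ZS knockout rats 30 to 33 had 8.60, 8.52, 8.59 and 8.64, with a mean of 8.59 ± 0.053 (SD, n = 4). The 6 ZD knockout rats had 8.33 at the lowest, 8.42 at the median and 8.52 at the highest, with a mean of 8.43 ± 0.066 (SD, n = 6). The groups met at their edge, with the ZD rat higher in 1 of 24 pairs. For 14.3% of all genes these groups did not overlap.

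The knockout difference was -0.16 (SE 0.082, 95% interval -0.33 to 0.00484), or -10.7%, with an adjusted p of 0.158 in limma, where 21.4% of genes passed. The exact two-sided permutation test gave p = 0.0143, or 0.025 adjusted over the 7 exact tests. The exact test and the fit over all genes thus fell on different sides of 0.05. They differ in adjustment, and the unadjusted p in limma was 0.0565. They also differ in the spread used. Limma pooled it over all 6 groups, with a residual SD of 0.123 for Stk40, above the SDs of 0.053 and 0.066 within the knockout groups. Smooth muscle markers were lower on the ZD diet here too, in 6 of 14, where 12% of all genes were called lower. Leaving out ZS knockout rat 32 left 3 of 14, while the calls over all genes in either direction fell from 3049 to 1566. Without that rat the Stk40 difference was -0.16 (adjusted p 0.277 in limma).

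Whether the diet difference itself changed with genotype was tested as an interaction. The diet difference of Stk40 was 0.24 log2 units less negative in knockout than in unedited rats (SE 0.11, 95% interval 0.00344 to 0.47). The unadjusted p in limma was 0.047 and the adjusted p 0.207, in a test that 8.39% of genes passed. A difference between the genotypes in the diet effect on Stk40 was therefore not called. The experiment and the genotype cannot be told apart.

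**Figure D3:**
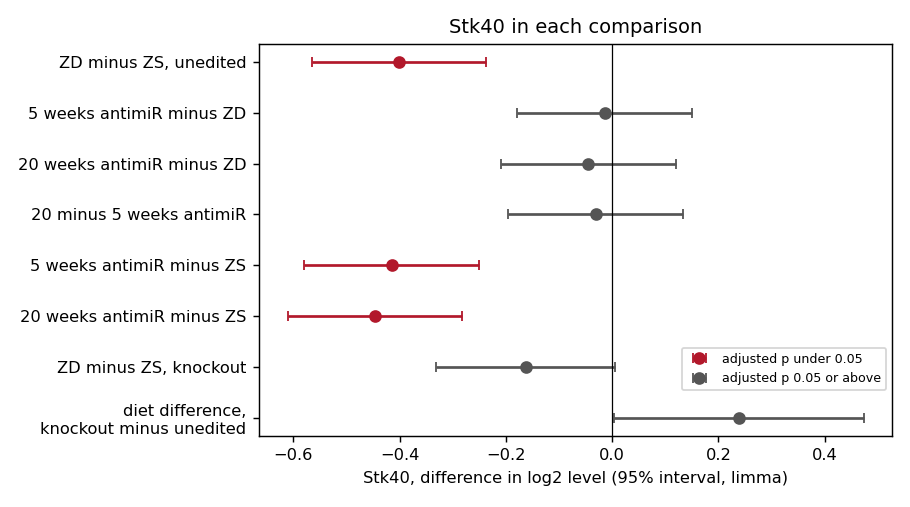
Difference in Stk40 log2 level for the 8 comparisons, with 95% intervals from limma. The 3 comparisons with untreated ZS rats lie wholly below 0, and the antimiR comparisons with untreated ZD rats lie across 0.

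Since levels cannot be set against each other between the sets, the place of Stk40 among all genes of its own array was taken as a description. On the unedited arrays Stk40 stood between the 49.4th and the 61.6th percentile, with a mean of 59.6 in ZS rats and of 54.0, 53.9 and 53.7 in the untreated, 5-week and 20-week ZD rats. On the knockout arrays it stood between the 68.0th and the 73.3rd percentile, with a mean of 72.1 in ZS and of 69.7 in ZD rats. The share of all genes whose percentiles separate between the sets was not computed, so the gap between these ranges is not read as a result about Stk40. The shift was 12.5 points on the ZS diet and 15.7 points on the ZD diet, and 6.32% and 1.76% of all genes shifted by as much or more in either direction. Genotype, experiment and normalization set cannot be told apart in this shift, and no test was made of it. In order, the percentiles ran from the ZS knockout through the ZD knockout and the untreated ZS rats to the 3 ZD groups of unedited rats, which did not differ from each other beyond their spread. The highest ZD knockout rat, at 71.1, was just above the lowest ZS knockout rat, at 71.0.

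The tribbles proteins are the closest relatives of STK40, and of their 3 genes Trib3 rose on the ZD diet in unedited rats. Trib3, a stress-induced pseudokinase, had a mean of 6.70 ± 0.22 (SD, n = 5) in ZS and of 7.82 ± 0.37 (SD, n = 5) in untreated ZD rats. The difference was 1.12 (SE 0.22, adjusted p 0.00178 in limma), and the other probe sets of Trib3 gave 0.54 and 0.99. The call was lost with the smooth muscle covariate, at 0.68 (adjusted p 0.234 in limma). Trib1 differed by 0.26 (adjusted p 0.353 in limma) and Trib2 by 0.21 (adjusted p 0.478 in limma), so neither passed. In the antimiR groups none of the 3 passed against untreated ZD rats. In the knockout rats Trib3 was 0.63 higher on the ZD diet and did not pass (adjusted p 0.0508 in limma). It passed in 3 of the 10 fits that left out 1 rat, and its other probe sets gave 0.13 and 0.063. The diet effect on Trib3 differed between the genotypes by -0.50 (adjusted p 0.377 in limma). Trib2 fell on the ZD diet in knockout rats, by 0.74 on the log2 scale (adjusted p 0.0055 in limma). Its diet effect differed between the genotypes by -0.95 (adjusted p 0.0234 in limma). Trib2 ranged from 6.93 to 8.31 over the ZS knockout rats and from 6.24 to 6.88 over the ZD knockout rats. Without ZS knockout rat 32, the highest of them, these values were -0.41 and -0.62 and both still passed (adjusted p in limma at most 0.0431). With the smooth muscle covariate the diet difference of Trib2 in knockout rats was -0.50 and no longer passed (adjusted p 0.096 in limma), whereas the difference between the genotypes was -1.08 (adjusted p 0.00645 in limma).

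Of 6 measured genes of the COP1 ligase, which STK40 binds, 1 was higher and none lower on the ZD diet in unedited rats, with a median of 0.00371, where 6.94% of all genes were called higher and 6.95% lower. The one that rose was Cul4b, a scaffold cullin, by 0.22 (adjusted p 0.00338 in limma, and 0.186 with the smooth muscle covariate). Its other probe set gave 0.23 and did not pass over all probe sets (adjusted p 0.396 in limma). Cop1 itself, at 10.9 ± 0.16 (SD, n = 5) in ZS and 10.8 ± 0.16 (SD, n = 5) in untreated ZD rats, differed by -0.042 (adjusted p 0.821 in limma). Of 10 measured COP1 substrates, among them Jun, Cebpa and Cebpb, none passed in either direction in limma, with a median of 0.15. In the knockout rats, where 9.47% of all genes were called higher and 12% lower, 2 of the 6 ligase genes rose on the ZD diet and 1 fell. Cop1 was higher by 0.32 (adjusted p 0.0177 in limma), a call that was lost without ZS knockout rat 32, and Cul4b by 0.16 (adjusted p 0.0209 in limma). Det1, an adaptor of the COP1 ligase, fell by 0.33 on the log2 scale (adjusted p 0.0153 in limma). The Cul4b and Det1 calls were lost with the smooth muscle covariate (adjusted p 0.145 and 0.104 in limma), and in 3 and 2 of the 10 fits that left out 1 rat. In those rats the substrates Cebpb, Jun and Cebpa were also higher, by 0.40, 0.41 and 0.28, and of these Cebpb alone passed without ZS knockout rat 32. The other probe sets of Jun gave 0.41 and 0.31 and those of Cebpa 0.060 to 0.24, and none of them passed over all probe sets. The other Cul4b probe set gave -0.086, and those of Cop1 gave -0.065 and 0.48, of which only 0.48 passed. The Jun call was also lost with the smooth muscle covariate (adjusted p 0.217 in limma).

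NF-kB subunits themselves did not pass between the diets in unedited rats. Rela, the p65 activator subunit, differed by -0.099 (adjusted p 0.302 in limma), and Nfkb1, which encodes p105 and p50, by 0.16 (adjusted p 0.224 in limma). Of 21 measured genes for subunits, kinases and inhibitors, 4 were higher and none lower, with a median of 0.090, where 6.94% of all genes were called higher and 6.95% lower. These 4 were the IkB inhibitors Nfkbia, by 0.60 (adjusted p 0.00408 in limma), and Nfkbib, by 0.39 (adjusted p 0.0187 in limma), the IkB-like cofactor Bcl3, by 0.68 (adjusted p 0.00908 in limma), and the IkB kinase Chuk, by 0.23 (adjusted p 0.0104 in limma). With the smooth muscle covariate all 4 calls were lost (adjusted p 0.232 to 0.404 in limma), where 1.10% of all genes passed. The call of Nfkbib was also lost without ZD rat 14. The other probe sets of Bcl3 gave 0.40 and 0.26 and did not pass over all probe sets (adjusted p 0.0926 and 0.279 in limma). Nfkbia is itself a transcriptional target of NF-kB, and its group means were 9.56 in ZS rats and 10.2, 10.1 and 9.99 in the untreated, 5-week and 20-week ZD rats.

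In knockout rats the members moved in both directions with diet, with 4 of 21 higher and 5 lower, where 9.47% of all genes were called higher and 12% lower. Leaving out ZS knockout rat 32 left 1 higher and 4 lower, while the calls over all genes in either direction fell from 3049 to 1566. Rela fell on the ZD diet by 0.32 on the log2 scale (adjusted p 0.000864 in limma) and Nfkb1 by 0.36 (adjusted p 0.00401 in limma). For Nfkb1 the diet effect differed between the genotypes, by -0.52 (adjusted p 0.00961 in limma). For Rela that difference was -0.22 (adjusted p 0.126 in limma).

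Among the genes that NF-kB switches on, 10 of 31 measured inflammatory targets rose on the ZD diet in unedited rats and none fell, with a median of 0.32, where 6.94% of all genes were called higher. Ptgs2, the inducible prostaglandin synthase COX-2, had the smallest adjusted p of them, with a difference of 3.87 (SE 0.68, adjusted p 0.000612 in limma). Its untreated ZD rats ran from 3.15 to 9.14, while the ZS rats lay between 3.04 and 3.26, so that the lowest ZD rat was inside the ZS range. Ccl2, a monocyte chemoattractant, rose by 2.45 (adjusted p 0.00268 in limma). Ptges, which makes prostaglandin E, and Sele, the endothelial E-selectin, each rose by 1.19 (adjusted p 0.00312 and 0.00416 in limma). With the smooth muscle covariate, 0 of the 31 passed in limma, where 1.10% of all genes passed in either direction.

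After 20 weeks of antimiR, 4 of these 31 targets were lower than in untreated ZD rats, against 0.485% of all genes. They were Ptgs2, which fell by 3.88 on the log2 scale (adjusted p 0.0137 in limma), the neutrophil chemoattractants Cxcl1 and Cxcl2, which fell by 1.81 and fell by 1.20, and Sele, which fell by 1.19. The 20-week rats had Ptgs2 between 2.78 and 3.53, and 1 to 8 of the targets passed as 1 rat at a time was left out, with Ptgs2 past the threshold each time. The calls of Cxcl1, Cxcl2 and Sele (adjusted p 0.0294, 0.05 and 0.0292 in limma) were lost in 8, 7 and 6 of those 10 fits, and that of Cxcl2 also with median centring (adjusted p 0.0529 in limma). With the smooth muscle covariate Ptgs2 still passed, at -3.16 (adjusted p 0.0323 in limma), while Cxcl1, Cxcl2 and Sele did not (adjusted p 0.103, 0.138 and 0.0627 in limma). In this comparison 9 of 10 macrophage markers lay below 0, with a median of -0.69, and 8 of 9 endothelial markers, with a median of -0.26. None of these markers passed in limma, and their part in the result was not tested. After 5 weeks none of the targets passed in limma, and Ptgs2 differed by -2.58 (adjusted p 0.417 in limma). In knockout rats 1 target rose on the ZD diet, the interleukin-1 receptor antagonist Il1rn, and 5 of 31 fell, where 9.47% of all genes were called higher and 12% lower. Leaving out ZS knockout rat 32 left 2 that fell. In the same comparison with all rats, 5 of 10 macrophage markers were lower, with a median of -0.81, as were 3 of 9 endothelial and 3 of 8 T and B cell markers. Without ZS knockout rat 32 these counts were 3, 3 and 0, while the calls over all genes in either direction fell from 3049 to 1566. The part of these cells was not tested. Ptgs2 there differed by 0.25 (adjusted p 0.84 in limma), and the diet effect on Ptgs2 differed between the genotypes by -3.62 (adjusted p 0.0228 in limma). On the ZD diet in unedited rats, 2 of 9 endothelial markers were higher and none lower, and so was 1 of 10 macrophage markers. The part of those cells in the diet values, such as that of the endothelial gene Sele, was not tested.

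**Figure D4:**
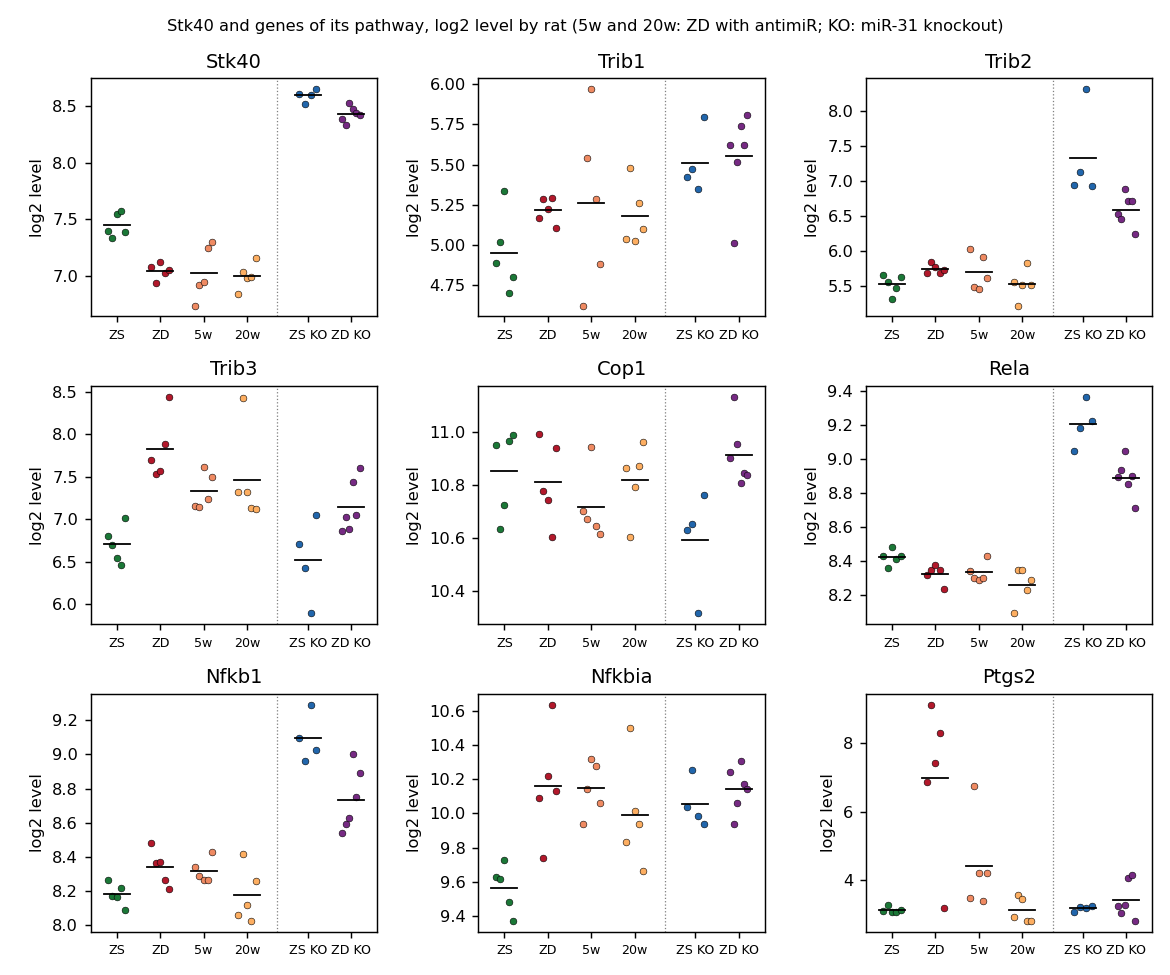
Log2 levels by group of Stk40, its relatives Trib1, Trib2 and Trib3, Cop1, the NF-kB genes Rela, Nfkb1 and Nfkbia, and the NF-kB target Ptgs2, with points for rats, horizontal lines for group means and a dotted line between the sets normalized apart. Within the unedited set Stk40 is lower in the 3 ZD groups, whereas Ptgs2 runs up to 9.14 in untreated ZD rats and lies between 2.78 and 3.53 after 20 weeks of antimiR.

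Stk40 was set beside the other published miR-31 targets, of which 34 of 41 were measured, itself included. In unedited rats 8 of the 34 were lower on the ZD diet and 2 higher, with a median of -0.15, where 6.95% of all genes were called lower. Beside Stk40, the lower ones were Bap1, a deubiquitinase and tumour suppressor, by -0.42 (adjusted p 0.000101 in limma), the focal adhesion protein gene Tns1, by -1.24 (adjusted p 0.00301 in limma), and Egln3, an oxygen-sensing prolyl hydroxylase, by -0.91 (adjusted p 0.00913 in limma). Rhobtb1, Ppp6c, Smad4 and Rdx completed the 8. The circadian regulator Clock, by 0.43 (adjusted p 0.00449 in limma), and Rasa1, by 0.37 (adjusted p 0.0171 in limma), were the 2 that rose. The other probe sets of Clock gave 0.15, 0.52 and 0.27, of which only 0.52 passed over all probe sets (adjusted p 0.0475 in limma). With the smooth muscle covariate 1 of the 34 passed as lower and 0 as higher, where 1.10% of all genes passed in either direction.

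In the antimiR groups none of the 34 passed in limma against untreated ZD rats, as against 0% of all genes after 5 weeks and 0.647% after 20 weeks. The medians of the 34 were 0.032 after 5 weeks and 0.035 after 20 weeks. Egln3 was 0.63 higher after 20 weeks (adjusted p 0.180 in limma). Against ZS rats, Stk40 and Bap1 were the 2 targets lower after 20 weeks, and Clock and Lats2 the 2 higher, where 1.8% of all genes were called lower and 1.83% higher. In knockout rats 4 of the 34 rose and 4 fell with the ZD diet, close to the 9.47% and 12% of all genes called in these directions. Leaving out ZS knockout rat 32, 3 rose and 1 fell, while the calls over all genes in either direction fell from 3049 to 1566. Bap1 there differed by -0.030 (adjusted p 0.769 in limma), and its diet effect differed between the genotypes by 0.39 (adjusted p 0.00622 in limma). Egln3 differed by -0.087 (adjusted p 0.834 in limma). Tns1 was again lower in these rats, by -0.93 (adjusted p 0.0162 in limma), a call lost without ZS knockout rat 32. Its other probe set gave -0.18 and did not pass over all probe sets. Clock was again higher, by 0.61 (adjusted p 0.000113 in limma). Its other probe sets gave 0.60, 0.16 and 0.94, of which 0.16 did not pass.

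**Figure D5:**
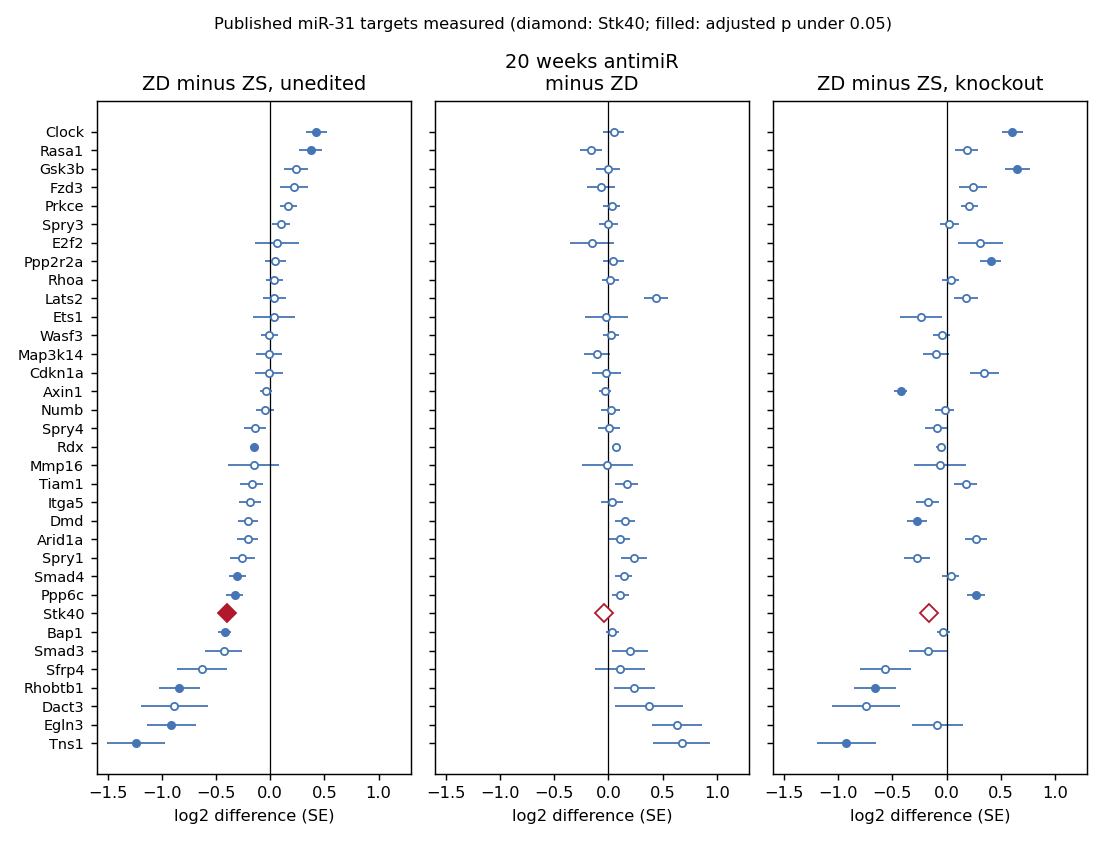
Difference in log2 level, with its SE, of the 34 measured miR-31 targets between the diets in unedited rats (left), between 20 weeks of antimiR and untreated ZD rats (middle) and between the diets in knockout rats (right), filled where the adjusted p was under 0.05. Stk40, the diamond, lies at -0.40, -0.045 and -0.16.

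Genes with a pattern like that of Stk40 were ranked by Pearson's r over the 20 unedited arrays, among 13978 genes. The values are a description, since the arrays share their group differences and their normalization. Over all these genes the central value of r was near 0, and 5% lay below -0.54 and 5% above 0.58. The highest were Kat7, a histone acetyltransferase (r = 0.89), Ccdc92 (r = 0.89), Chmp7, of the membrane-remodelling ESCRT machinery (r = 0.89), Alg3 (r = 0.86), Capn15 (r = 0.85) and Prpf19, a splicing factor (r = 0.85). Bap1, also on the list of miR-31 targets, was the seventh with r = 0.84, and Baz1b, Hlf and Msh6 followed with r of 0.83 each. The lowest were Ifrd1 (r = -0.90), Ttpa (r = -0.87), Mreg (r = -0.85), Rpap2 (r = -0.84) and Fam135a (r = -0.84).

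Part of this likeness came with the group means and part did not. With group means removed, r was 0.73 for Kat7, 0.76 for Ccdc92, 0.71 for Chmp7 and 0.48 for Bap1. Over the 10 knockout arrays, which the ranking did not use, r was 0.89 for Kat7, 0.67 for Chmp7, 0.12 for Ccdc92, 0.49 for Bap1 and -0.27 for Msh6, while Rpap2 was at -0.91. With group means removed there too, r was 0.61 for Kat7, -0.019 for Chmp7, -0.22 for Ccdc92, 0.51 for Bap1 and -0.83 for Rpap2. Kat7 itself was lower on the ZD diet in knockout rats by -0.29 (adjusted p 0.000478 in limma), and by -0.15 in unedited rats (adjusted p 0.0556 in limma). Among the genes of the pathway, r with Stk40 over the 20 arrays was 0.69 for Rela, 0.14 for Cop1, -0.55 for Trib3, -0.50 for Nfkbia and -0.31 for Ptgs2. With group means removed it was 0.43 for Rela, -0.056 for Cop1, 0.023 for Trib3, 0.15 for Nfkbia and -0.16 for Ptgs2. Over the 10 knockout arrays it was 0.74 for Rela, -0.70 for Cop1, -0.45 for Trib3, -0.34 for Nfkbia and -0.075 for Ptgs2. With group means removed there too, it was 0.20 for Rela, -0.22 for Cop1, 0.22 for Trib3, -0.11 for Nfkbia and 0.31 for Ptgs2. For Nfkb1, Trib1, Trib2 and Egln3, r over the unedited arrays was -0.11, -0.29, -0.33 and 0.31. With group means removed it was 0.29, 0.031, -0.25 and -0.36. Over the knockout arrays it was 0.75, 0.23, 0.64 and 0.43, and 0.34, 0.53, 0.20 and 0.55 with group means removed.

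None of the 6 genes measured beside Stk40 on chromosome 5 was called lower on the ZD diet in unedited rats, where 6.95% of all genes were. At that share, no such call among 6 genes is unremarkable. Lsm10, next to it on one side, differed by 0.21 between the diets in unedited rats (adjusted p 0.072 in limma). Eva1b, on the other side with 1 gene between, rose by 0.89 on the ZD diet (adjusted p 0.00225 in limma), in the direction opposite to Stk40, and was lower after 20 weeks of antimiR than in untreated ZD rats by -0.82 (adjusted p 0.029 in limma), a call lost in 6 of the 10 fits that left out 1 rat. Oscp1, Mrps15, Sh3d21 and Thrap3 differed by between -0.096 and 0.39, and none passed in limma.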

How the data were processed

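Oesophageal epithelium RNA of 30 rats was measured on Affymetrix rat arrays, 1 per rat. The authors deposited log2 expression values per probe set, made with Affymetrix Expression Console and RMA per the submitters' processing notes; versions and array annotation release are not given in the sources used here. Of 31099 probe sets, 57 controls were left out, 20826 carried 1 gene symbol and 436 several. Each of 14217 genes was represented by its probe set with the highest mean. Groups were fitted together in limma 3.58.1 (R 4.3.3), with 1 coefficient per group over all 30 arrays, and adjusted by Benjamini-Hochberg over all genes at 0.05; the fit was tested on simulated data. Exact two-sided permutation tests over rats were made on Stk40 alone. Members and gene lists were chosen with earlier results of these data known. Named were Stk40, genes of its pathway set by name, per list up to 4 genes of lowest adjusted p between the diets in unedited rats, the 10 genes most and 5 least like Stk40, and its chromosomal neighbours; other names were added after their values were seen. Alternatives changed scaling, dim-gene filter, probe set choice, array weights, variance model, samples fitted and marker covariates, and left out each rat.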

Additional observations from a re-analysis of the deposited data

How the results depend on the processing

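The Stk40 diet difference in unedited rats kept its direction under every alternative tried and passed in 10 of 11, from -0.40 to -0.34, the exception being the smooth muscle covariate (-0.34, adjusted p 0.113 in limma). Leaving out 1 rat gave -0.43 to -0.37, always past the threshold. Against ZS rats the 5-week group ran from -0.48 to -0.34 and the 20-week group from -0.49 to -0.41 with 1 rat left out, all past it. Signs turned with 1 rat left out for 5 weeks against untreated ZD (-0.081 to 0.059) and 20 against 5 weeks (-0.10 to 0.036), neither ever past it. The 20-week difference from untreated ZD ran from -0.085 to -0.0047, the knockout difference from -0.19 to -0.14 and the interaction from 0.21 to 0.27, none past it; under the other alternatives these 3 ran from -0.073 to -0.027, from -0.18 to -0.12 and from 0.20 to 0.27, also none past it. No paired analysis was possible because every rat has a number of its own.

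Counts over all genes moved more. Smooth muscle as a covariate took them from 1974 to 156 between the diets, 92 to 34 for 20 weeks, 1291 to 302 and 516 to 121 for the antimiR groups against ZS, and 3049 to 1479 in knockout rats. Array weights gave 557 (20 weeks), 22 (20 against 5 weeks, from 3) and 2131 (5 weeks against ZS). Fits to the groups compared alone gave 21, 0 and 140 for 20 weeks against ZD, 5 weeks and ZS. A suprabasal covariate gave 1609 in knockout rats and 169 of 1193 for the interaction, every probe set 5497 and 1968, quantile scaling 2 for 5 weeks (from 0), and the filter on dim genes 7 for 20 against 5 weeks. With 1 rat left out, the count ran from 1191 (without ZD rat 14) to 2424 (without ZD rat 15) between the diets, from 9 (without 20-week rat 4) to 379 (without 20-week rat 2) for 20 weeks and from 1566 (without ZS knockout rat 32) to 3244 in knockout rats. Median centring moved the share called higher from 25% to 40.8% for 20 weeks and from 44.2% to 54.9% in knockout rats. The filter on dim genes left 6 NF-kB targets higher between the diets in place of 10, and the smooth muscle covariate 0 of the 4 NF-kB pathway genes and no tribbles gene. Precision is limited by the number of rats, and by 1 probe set for Stk40.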
